A study of Mus musculus with 12 samples.

Results

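Voltage-gated calcium channels are described here through 10 of their subunit genes in the cerebral cortex of mice with a mutation of Tbl1xr1. The genes are Cacna1c and Cacna1d (pores of L-type channels), Cacna1a (P/Q type), Cacna1b (N type), Cacna1e (R type), Cacna1g, Cacna1h and Cacna1i (T type), the α2δ subunit gene Cacna2d1 and the β subunit gene Cacnb4. They were chosen by symbol with no rule on their values, though with earlier results of these data known. They are 10 of the 54232 gene rows of the count table. All 10 passed the filter on low counts. Cortex RNA was sequenced from 12 mice of strain C57BL/6J at 12 weeks of age, 6 wild type and 6 homozygous for the Tbl1xr1 allele Y446C, which models Pierpont syndrome. Each genotype had 3 females and 3 males, so that there were 4 groups of 3 animals, each animal with its own library. The labels name no Cre and no drug treatment, and no engineered allele in the wild-type mice. Libraries are named below by sex, genotype and animal number. The question put to the data was whether the mutation changes the expression of these subunits and the balance of the L, P/Q, N, R and T types.

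A voltage-gated calcium channel opens when the membrane depolarizes and lets calcium into the cell. Its α1 subunit forms the pore and sets the channel's type, while β and α2δ subunits carry high-voltage-activated channels to the membrane and tune their gating. P/Q, N and R channels drive transmitter release, L-type channels couple activity to gene expression, and T-type channels open near the resting potential and support burst firing. The product of Tbl1xr1 works in transcription, as part of the corepressor machinery built around NCoR.

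The types differ in the pore itself. Each α1 subunit has a ring of acidic residues, 1 from each of its homologous domains, that selects calcium over other ions. The codon for this residue in domain III is printed in capitals within 27 bases of coding sequence, 5′ to 3′, from the GENCODE M21 transcripts of build GRCm38, because it separates the T type from the others within a few bases.
Cacna1c: gtctccaccttcGAAgggtggccagag
Cacna1d: gtctcaacttttGAGggctggcccgcg
Cacna1a: gtgtccacaggaGAGggctggccacag
Cacna1b: gtgtccacgggaGAGgggtggcccatg
Cacna1e: gtctctacagggGAAggatggcctcag
Cacna1g: ctggcctccaagGATggctgggttgac
Cacna1h: ctgtcatccaagGATggctgggtaaac
Cacna1i: ttggcctccaagGATggctgggtgaac
In the L, P/Q, N and R genes the codon is GAA or GAG, which encode glutamate. In all 3 T-type genes it is GAT, which encodes aspartate. The codon just before it follows the type as well, being ttc or ttt in the L-type genes, gga or ggg in the P/Q, N and R genes, and aag in the T-type genes. In the 5 genes of high-voltage-activated channels the printed stretch crosses an exon boundary, and in the 3 T-type genes it lies within exon 24.

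Counts assigned to genes were 21238427 to 32669138 in 11 libraries and 3748515 in female mutant 3. Mitochondrial genes took 31.6% of the counts of that library and 5.23% to 10.4% of the others. Among the females the other mutants had 9.96% and 8.97%, above the 5.23% to 7.89% of the wild type. Markers of cortical excitatory neurons were present in all libraries, with 12 genes summing to 1340 to 1750 CPM (reads per 1000000, on TMM-scaled totals). Markers of striatal projection neurons, which a cortex dissection can include, summed to 786 to 2350 CPM in female wild-type, 703 to 1470 in female mutant, 668 to 1600 in male wild-type and 346 to 816 in male mutant libraries. All 12 of the striatal markers had a log2 fold change below 0, with a median of -0.77 over both sexes, where 52.4% of all tested genes were below 0. None passed edgeR's test after adjustment, where 0.00555% of genes did. Before adjustment 7 of the 12 had a p under 0.05, where 3.96% of genes did. Without female mutant 3, 10 of the 12 had one, where 7.46% of genes did. The 5 blood markers summed to 18.2 to 32.2 CPM in female mutants against 34.1 to 44.2 in female wild type, and to 40.7 to 52.2 in male mutants against 20.7 to 27 in male wild type. Inhibitory neuron and astrocyte sums were lower in the male mutants than in all male wild-type libraries, at 1220 to 1230 against 1310 to 1390 CPM and 5420 to 5590 against 5750 to 6040. Among single genes, groups of 3 that do not overlap are common, at 22.5% of tested genes in females and 13.5% in males. Most of the astrocyte sum is Slc1a2, a glutamate transporter gene at 4020 CPM in wild type, and the list as a whole did not go one way, with 3 of its 10 genes below 0 in males (median log2 fold change 0.14) and 5 of 10 over both sexes. Gfap, an intermediate filament gene of astrocytes, was 144 ± 23.5 CPM in wild type and 203 ± 37.7 in mutants (SD, n = 6). Its log2 fold change was 0.49 ± 0.13 (SE, adjusted p = 0.950 by edgeR). Gad1, a gene of GABA synthesis, was 418 ± 28.1 and 332 ± 48.1 CPM, at -0.34 ± 0.10 (adjusted p = 0.950). DESeq2 without female mutant 3 called both, with adjusted p of 0.000631 for Gfap and 0.0307 for Gad1, and none of the other alternatives did. Markers of thalamic neurons (12 genes) summed to 545 to 809 CPM in female wild type and 440 to 1180 in female mutants, with female mutant 3 the highest. In males they summed to 440 to 962 CPM in wild type and 327 to 830 in mutants. In females 2 of the 12 had a log2 fold change below 0 (53.5% of genes), and 5 of 12 without female mutant 3 (51.9% of genes). The part of these differences in the results below was not tested.

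In wild-type cortex Cacnb4 and Cacna2d1 were higher per length than each of the 8 pore genes. Cacnb4 was the highest at 44.3 ± 5.51 CPM per kilobase of merged exons (SD, n = 6), followed by Cacna2d1 at 25.8 ± 1.46. Among the pore genes the order was Cacna1e (20.3 ± 1.0), Cacna1a (17.9 ± 1.57), Cacna1b (13.9 ± 0.984), Cacna1i (10.8 ± 1.67), Cacna1g (7.83 ± 1.06), Cacna1c (6.70 ± 0.406), Cacna1d (5.34 ± 0.247) and Cacna1h (5.27 ± 0.552). The ranges of the wild-type libraries overlapped between the neighbours Cacna1e and Cacna1a, Cacna1a and Cacna1b, Cacna1i and Cacna1g, Cacna1g and Cacna1c, and Cacna1d and Cacna1h. Within each wild-type library, however, Cacna1e was above Cacna1a, Cacna1a above Cacna1b and Cacna1i above Cacna1g by this measure. The order of Cacna1g and Cacna1c and that of Cacna1d and Cacna1h differed between libraries and is not resolved. The length used matters for Cacna1c, whose merged exons (21191 bases) far exceed its longest coding sequence (6666 bases). The same holds for Cacna1e (25228 and 6819 bases), Cacna2d1 (12416 and 3309) and Cacnb4 (8963 and 1557), which kept their ranks. Per kilobase of coding sequence Cacna1c moved from rank 8 to rank 5, at 21.3 ± 1.29 CPM, and Cacna1e stood further apart from the other pores, at 75.2 ± 3.71.

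**Figure D1:**
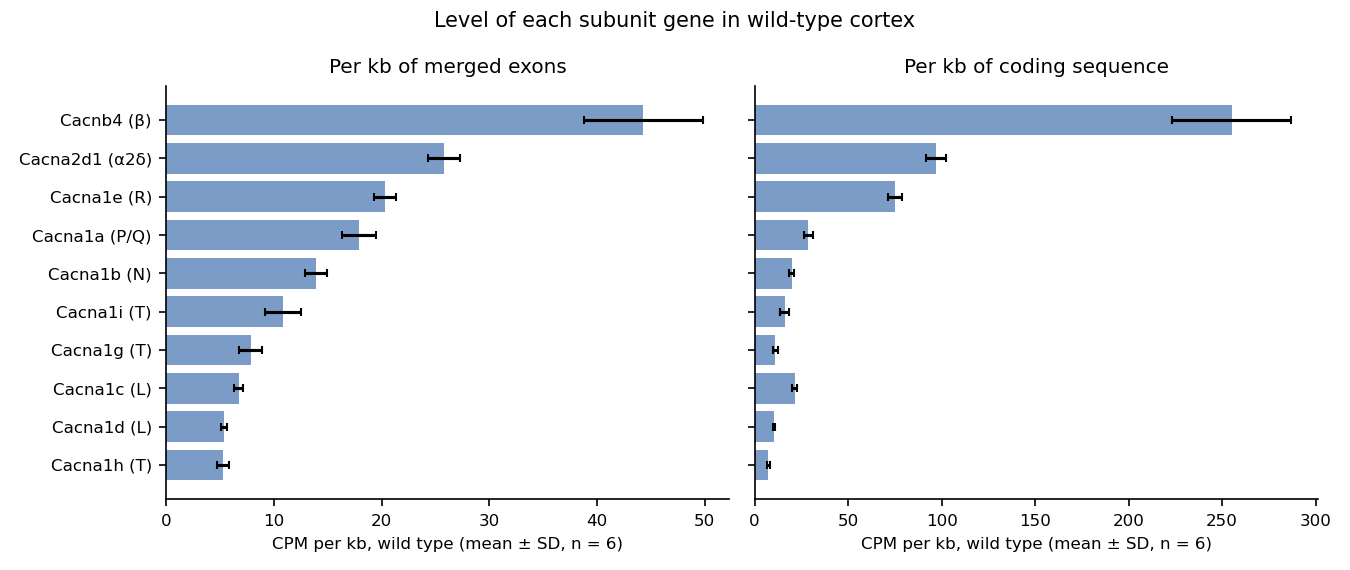
Level of each subunit gene in the 6 wild-type libraries, as CPM per kilobase of merged exons (left) and per kilobase of the longest coding sequence (right), with bars for the mean and error bars for the SD. Cacnb4 and Cacna2d1 are highest by both lengths, and Cacna1c is the gene whose rank depends most on the length used.

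As types, the T genes together and the single R gene took the largest shares of the summed level of the 8 pore genes. In wild type the T type held 27.1% ± 1.91 of that sum (SD, n = 6), the R type 23.1% ± 0.814, the P/Q type 20.3% ± 1.77, the N type 15.8% ± 0.491 and the L type 13.7% ± 0.655. With coding length in place of merged exons the R type came first, at 39.6%, ahead of the T type at 18.2%. Within the T type, Cacna1i held 45.0% of the level, Cacna1g 32.9% and Cacna1h 22.1%. Within the L type, Cacna1c held 55.6% and Cacna1d 44.4%.

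In the mutants the T share was 23.0% ± 4.81 and the R share 26.0% ± 4.42 (SD, n = 6), and without female mutant 3 they were 24.8% ± 2.29 and 24.4% ± 2.25 (n = 5). The shares of the L type (14.6%), P/Q type (20.5%) and N type (16%) were each within 1 percentage point of the wild type. The T share by library was 26.4%, 29.9% and 27.6% in female wild-type mice 2, 4 and 5, and 24.5%, 14.1% and 21.4% in female mutants 1, 3 and 6. It was 24.2%, 26.6% and 28.0% in male wild-type mice 8, 12 and 13, and 27.5%, 26.3% and 24.3% in male mutants 7, 10 and 27. The female mutants all lay below the female wild type, with or without female mutant 3, and the male groups overlapped. The R share was 23.4%, 21.8% and 22.5% in female wild type and 24.5%, 34.0% and 27.7% in female mutants, so that it was higher in each mutant female, and it overlapped in the males (23.3% to 24.1% against 21.9% to 24.9%). A share falls when the others rise, and no test was made on sums over genes. Because this is bulk tissue, fewer cells of a type and less RNA per cell cannot be told apart here or below.

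**Figure D2:**
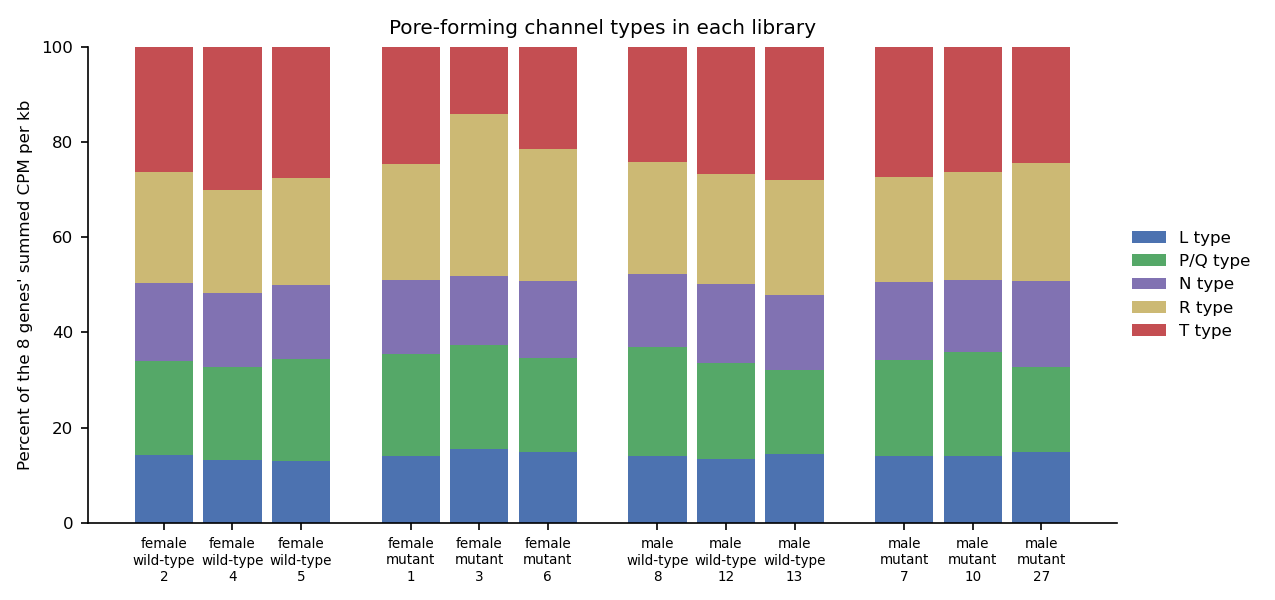
Share of each pore type in the summed CPM per kilobase of merged exons of the 8 pore-forming genes, 1 bar per library (vertical axis in percent), grouped by sex and genotype. The T-type segment at the top is smallest in female mutant 3 (14.1%), and 21.4% and 24.5% in the other female mutants.

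No member passed edgeR's quasi-likelihood test at an adjusted p of 0.05 in any comparison. Over both sexes 0 of 10 were called, where 0.00555% of the 18016 tested genes were (1 gene). Before adjustment 1 of the 10 had a p under 0.05 (Cacna1g), where 3.96% of all genes did. DESeq2 and limma-voom likewise called 0 members, while calling 29 genes and 1 gene in all. The log2 fold change was below 0 for 8 of 10 members with a median of -0.09, and for 52.4% of all tested genes with a median of -0.01. In females 0 of 10 were called and 2 had an unadjusted p under 0.05, where the shares of all genes were 0% and 11.8%. In females 7 of 10 were below 0 (median -0.14), where 53.5% of genes were. In males 0 of 10 were called and 0 had an unadjusted p under 0.05 by edgeR, where the shares of all genes were 0% and 2.78%. All 10 male fold changes were below 0 (median -0.09), where 49% of genes were (median 0.005), and the one farthest from 0 was that of Cacnb4 at -0.28. That count was 7 of 10 without male wild-type 12 (median -0.05), 8 of 10 without male mutant 10 (median -0.04), without male mutant 7 or with library totals, and 9 of 10 without male mutant 27. Without female mutant 3, 0 of 10 members were called over both sexes or in females, where 0.0108% and 0% of 18461 genes were. Of the members 1 then had an unadjusted p under 0.05 over both sexes (7.46% of genes), 8 were below 0 (49.1% of genes) and the median was -0.05. In females 2 had an unadjusted p under 0.05 (9.41% of genes), 6 were below 0 (51.9% of genes) and the median was -0.04. In males, whose own libraries are the same but whose test shares the estimate of spread, 0 of 10 were called (0.00542% of genes), 1 had an unadjusted p under 0.05 (8.43% of genes) and 10 were below 0 (48.9% of genes).

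**Figure D3:**
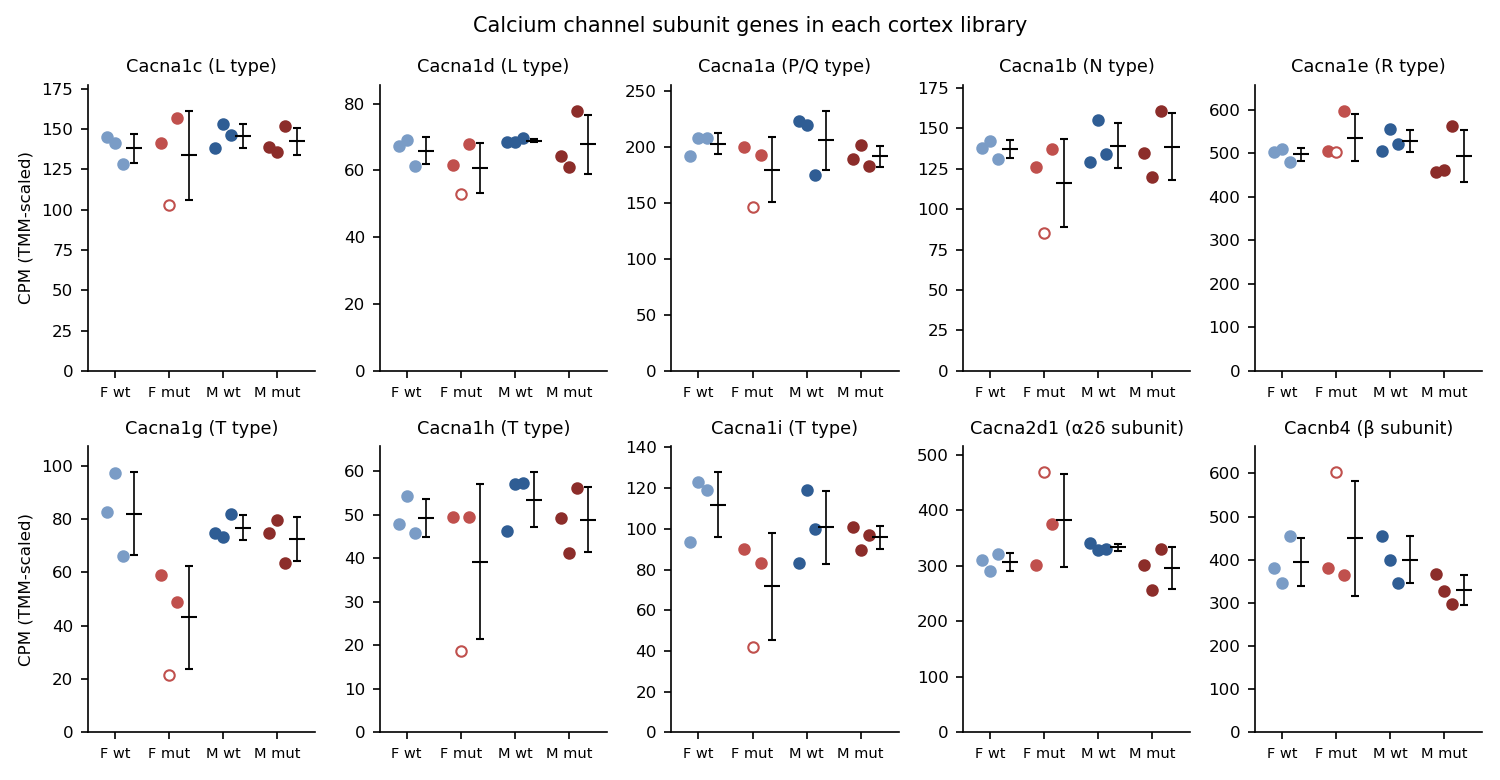
CPM of each of the 10 genes in every library (vertical axes start at 0), grouped as female (F) or male (M) and wild type (wt) or mutant (mut), with the group mean and SD as a bar at the right of each group. The open circle is female mutant 3, which is the lowest library for 7 genes and the highest for Cacna2d1 and Cacnb4.

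The L-type genes differed little between the genotypes. Cacna1c (chr6:118587240-119196418, minus strand) encodes the main L-type pore of heart, smooth muscle and brain. It measured 145, 141 and 128 CPM in female wild type, 141, 103 and 157 in female mutants, 138, 153 and 146 in male wild type and 139, 136 and 152 in male mutants. The genotypes overlapped in both sexes, with female mutant 3 the lowest library, and the log2 fold change over both sexes was -0.04 ± 0.09 (SE, adjusted p = 0.968). Cacna1d (chr14:30039939-30491455, minus strand) encodes an L-type pore that opens at more negative voltages and supports pacemaking. Its CPM was 67.4, 69.1 and 61.3 in female wild type, 61.5, 53.0 and 67.8 in female mutants, 68.6, 68.6 and 69.6 in male wild type and 64.4, 61.0 and 77.9 in male mutants. The groups overlapped again, with a log2 fold change of -0.07 ± 0.08 (SE, adjusted p = 0.950). Exons of Cacna1d share 589 bases with Chdh on the opposite strand, and whether strand was used in the counting is not given in the sources used here. Reads of that stretch make this count uncertain. Chdh itself had 2340 counts over all 12 libraries.

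Cacna1a (chr8:84388440-84640246, plus strand), the P/Q-type pore mutated in tottering mice, gave 192, 208 and 208 CPM in female wild type and 200, 146 and 193 in female mutants. In males it gave 223, 219 and 175 in wild type and 189, 202 and 183 in mutants. Wild type and mutants overlapped in both sexes, and the log2 fold change was -0.13 ± 0.09 over both sexes (SE, adjusted p = 0.950) and -0.07 without female mutant 3 (adjusted p = 0.861). Cacna1b (chr2:24603887-24763152, minus strand) encodes the N-type pore, the presynaptic channel blocked by ω-conotoxin. Female wild-type mice had 138, 142 and 131 CPM and female mutants 126, 85.2 and 137, whereas male wild-type mice had 129, 155 and 134 and male mutants 135, 120 and 161. The log2 fold change of Cacna1b was -0.12 ± 0.12 (SE, adjusted p = 0.950) and -0.03 without female mutant 3. The value of 85.2 in that library lies apart from the 120 to 161 CPM of the other 11.

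Cacna1e (chr1:154390731-154884501, minus strand), which encodes the R-type pore, had the highest mean CPM per kilobase of exons of the pore genes in all 4 groups. It measured 503, 509 and 480 CPM in female wild type, 506, 503 and 598 in female mutants, 505, 556 and 522 in male wild type and 456, 462 and 563 in male mutants. Female mutant 6 was the highest library and male mutants 7 and 10 the lowest, so that the mutants held both ends of the range. Over both sexes the genotypes had nearly the same mean, 513 ± 25.3 CPM in wild type and 515 ± 56.1 in mutants (SD, n = 6), with a log2 fold change of 0.006 ± 0.08 (SE, adjusted p = 0.997). It was 0.11 in females and -0.10 in males, and the difference between the sexes did not pass the test (log2 0.20 ± 0.16, adjusted p = 0.592).

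Cacna1g and Cacna1i were lower in the female mutants without passing the test. With all 12 libraries the T-type genes had the fold changes farthest from 0 over both sexes, but without female mutant 3 that of Cacna1h (-0.07) was nearer to 0 than that of Cacnb4 (-0.19). Cacna1g (chr11:94408391-94474198, minus strand) encodes a T-type pore known for burst firing of thalamic relay neurons. It measured 82.6, 97.4 and 66.3 CPM in female wild-type mice 2, 4 and 5, and 58.9, 21.7 and 48.8 CPM in female mutants 1, 3 and 6. Each female mutant lay below each female wild-type mouse, although the nearest pair, 58.9 and 66.3, were close. In males it measured 74.7, 73.4 and 82.1 CPM in wild type and 74.7, 79.6 and 63.4 in mutants, which overlap. In females the log2 fold change of Cacna1g was -0.87 ± 0.26 (SE), a ratio of 0.547, with an unadjusted p of 0.00557 and an adjusted p of 0.418. Without female mutant 3 it was -0.61 ± 0.15, with an unadjusted p of 0.00149 and an adjusted p of 0.516. Over both sexes the log2 fold change was -0.47 ± 0.21 (adjusted p = 0.950), and -0.31 ± 0.12 without female mutant 3 (adjusted p = 0.576). The count behind the value of that library is 56 reads, against 1498 to 2776 in the others.

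Cacna1i (chr15:80287238-80398279, plus strand) encodes a T-type pore of the thalamic reticular nucleus and cortex. It measured 93.4, 123 and 119 CPM in female wild type and 90.3, 41.8 and 83.3 in female mutants. The mutants were again all lower, by a margin of 93.4 against 90.3 at the nearest pair. In males the values were 83.4, 119 and 99.8 CPM in wild type and 101, 89.5 and 96.8 in mutants, within the wild-type range. The log2 fold change of Cacna1i in females was -0.61 ± 0.23 (SE, unadjusted p = 0.0222, adjusted p = 0.418), and -0.37 ± 0.15 without female mutant 3 (adjusted p = 0.521). Over both sexes it was -0.34 ± 0.18 (adjusted p = 0.950).

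The other T-type gene differed from these in the females. Cacna1h (chr17:25374285-25433783, minus strand), whose channel is best known in sensory neurons, measured 47.8, 54.3 and 45.9 CPM in female wild type and 49.4, 18.6 and 49.5 in female mutants. In males it measured 46.2, 57.1 and 57.2 CPM in wild type and 49.3, 41.3 and 56.1 in mutants. Female mutants 1 and 6 lay inside the wild-type range, and female mutant 3 (48 reads) lay far below it. The log2 fold change in females was -0.27 ± 0.26 (SE, adjusted p = 0.611) with all libraries and 0.005 ± 0.13 without female mutant 3 (adjusted p = 0.995).

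Groups that do not overlap were common among all genes in the females. There the genotypes did not overlap for 2 of 10 members, both lower in mutants, and 12.4% of all tested genes were lower in this way (22.5% in either direction). Without female mutant 3 the same 2 members did not overlap, where 15.7% of genes were lower and 30.1% differed in either direction. In males 0 of 10 members separated, where 13.5% of genes did, and over both sexes 0 of 10, where 0.438% did, or 1.08% without female mutant 3.

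Cacna2d1 and Cacnb4 were high in female mutant 3. Cacna2d1 (chr5:15934691-16374511, plus strand) encodes the α2δ subunit that binds gabapentin. It measured 311, 290 and 322 CPM in female wild type, 302, 469 and 375 in female mutants, 341, 329 and 331 in male wild type and 301, 257 and 331 in male mutants. Female mutants 3 and 6 were the highest of all libraries, while mutant 1 lay within the wild type. The log2 fold change of Cacna2d1 was 0.31 ± 0.15 in females (SE, adjusted p = 0.426) and -0.17 ± 0.15 in males (adjusted p = 0.9999), and over both sexes its sign turned from 0.07 to -0.03 when female mutant 3 was left out. Cacnb4 (chr2:52428320-52676831, minus strand), the β subunit gene mutated in lethargic mice, measured 381, 347 and 456 CPM in female wild type and 381, 603 and 365 in female mutants. In males it measured 455, 400 and 346 CPM in wild type and 366, 327 and 297 in mutants, where the groups overlapped at 346 and 366. Its log2 fold change was -0.28 ± 0.19 in males (SE, adjusted p = 0.9999), with an SE of 0.12, an unadjusted p of 0.0386 and an adjusted p of 0.580 without female mutant 3. It was over both sexes -0.05 ± 0.15 (adjusted p = 0.973), or -0.19 ± 0.09 without female mutant 3 (adjusted p = 0.676). Cacnb4 shares 1433 exon bases with the opposite-strand transcript A430018G15Rik, to which 203 counts were assigned over all libraries.

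**Figure D4:**
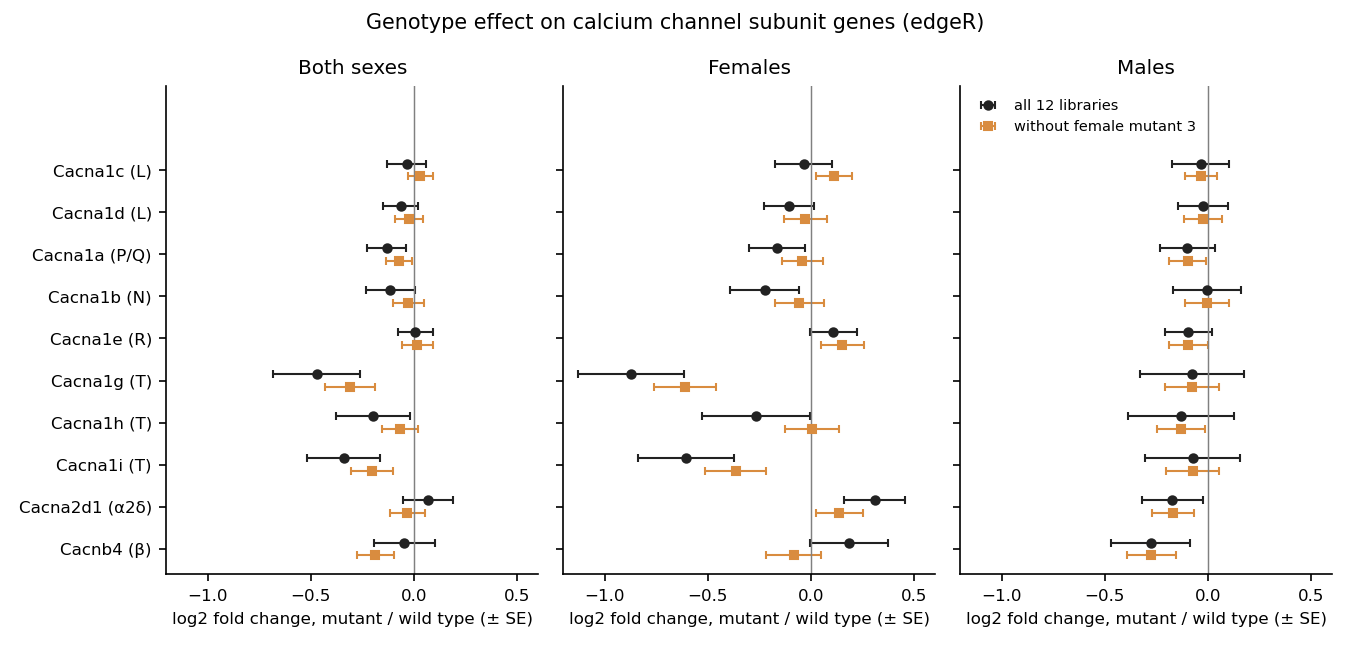
Log2 fold change of mutant over wild type with its SE (horizontal axes) for each gene over both sexes, in females and in males, from edgeR with all 12 libraries (black circles) and without female mutant 3 (orange squares). Cacna1g and Cacna1i lie lowest in females in both fits, and without female mutant 3 the female values of 8 genes are nearer to 0, and those of Cacna1c and Cacna1e are farther from it.

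The genotype effect was compared between the sexes directly. For Cacna1g the effect in females minus that in males was -0.79 ± 0.36 on the log2 scale (SE, unadjusted p = 0.0486, adjusted p = 0.555), and for Cacna2d1 it was 0.48 ± 0.21 (unadjusted p = 0.0415, adjusted p = 0.555). These were the 2 members of 10 with an unadjusted p under 0.05, where 7.67% of all genes had one, and 0 members and 0% of genes were called. Without female mutant 3, 1 member had an unadjusted p under 0.05 (10.6% of genes) and 0 were called (0% of genes). The difference was then -0.53 ± 0.20 for Cacna1g (adjusted p = 0.459) and 0.31 ± 0.15 for Cacna2d1 (adjusted p = 0.479). Between females and males of both genotypes 0 of 10 members were called or had an unadjusted p under 0.05 by edgeR, where 0.0389% and 1.77% of genes did. The largest sex difference was that of Cacna1g, at -0.30 ± 0.21 (female over male, SE, adjusted p = 0.897), or -0.13 ± 0.12 without female mutant 3 (adjusted p = 0.9997).

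Female mutant 3 departed from the other libraries along the base composition of the genes, and the subunit genes as a set, though not each one, showed the same trend. Its CPM over the median of the other 11 libraries was 1.65 for Cacnb4, 1.45 for Cacna2d1, 0.994 for Cacna1e, 0.782 for Cacna1d, 0.734 for Cacna1c, 0.731 for Cacna1a, 0.630 for Cacna1b, 0.432 for Cacna1i, 0.376 for Cacna1h and 0.290 for Cacna1g. The GC content of the longest coding sequence was 43.3% in Cacna2d1, 49.8% in Cacna1d, 50.9% in Cacnb4, 53.0% in Cacna1e, 53.9% in Cacna1c and 55.6% in Cacna1b. It was 58.8% in Cacna1g, 59.1% in Cacna1a, 59.5% in Cacna1i and 60.0% in Cacna1h, so that the T-type genes are among the richest in GC. Across the 10 members the log2 ratio and GC content had a Pearson's r of -0.810 (Spearman's rho -0.842), and across 13408 genes r was -0.534 (rho -0.567), both as descriptions of 1 library. In 5 equal classes of genes from low to high GC content, the median ratio was 1.47, 1.11, 0.837, 0.591 and 0.466. Cacnb4 and Cacna1d are both in the second class, whose middle 50% of genes ran from 0.802 to 1.52. Cacnb4 lay above that band and Cacna1d below it, while each other member lay within the band of its class. The part of GC content in the members' ratios was not tested.

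**Figure D5:**
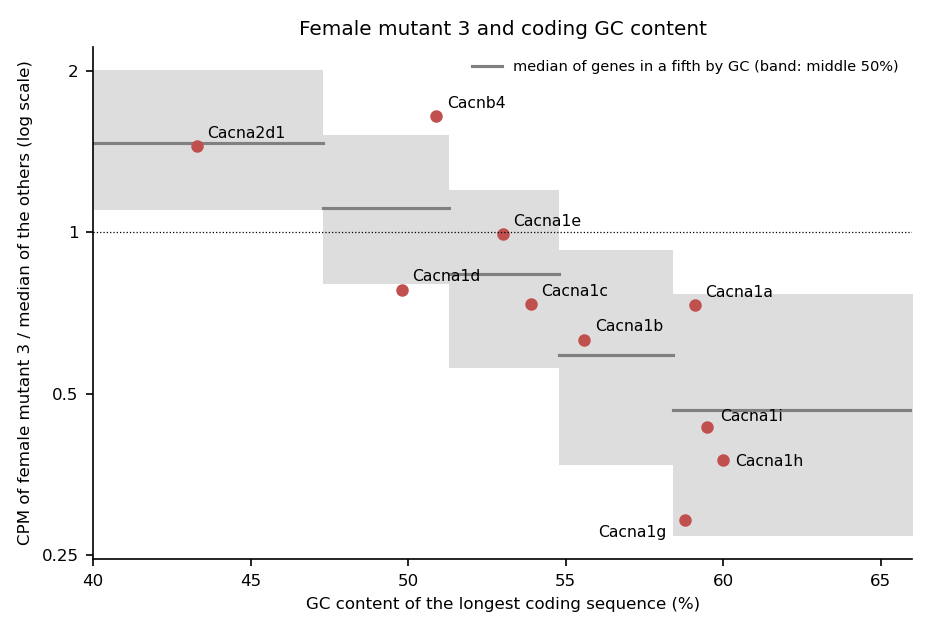
CPM of female mutant 3 over the median of the other 11 libraries (vertical axis, log scale) against the GC content of the longest coding sequence (horizontal axis, shown from 40% to 66%), with the 10 members as red points and the median and middle 50% of 13408 genes in 5 equal classes by GC as grey lines and bands. The median ratio of the classes falls from 1.47 at the lowest GC to 0.466 at the highest. The members fall as a set, with Cacnb4 above and Cacna1d below the band of their class.

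The other female mutants did not share that slope to the same degree. The mean of female mutants 1 and 6 over that of the female wild type had medians by GC class of 1.04, 1.02, 0.992, 0.968 and 0.947. Cacna1g, at 0.656, and Cacna1i, at 0.776, lay below the 0.947 of the highest class, while Cacna1h (1.0) and Cacna1a (0.971) from the same class lay above it. The spread of genes around these class medians is not given for this ratio, so how unusual such values are is not shown. When each library's trend with GC content was removed in the fit, an alternative added after the data were seen, the log2 fold change of Cacna1g in females was -0.63 ± 0.15 (SE, unadjusted p = 0.00136, adjusted p = 0.383) and that of Cacna1i was -0.33 ± 0.12 (unadjusted p = 0.0204, adjusted p = 0.383). In the same fit Cacna1h was at -0.01, Cacna2d1 at 0.04 and Cacna1a at 0.18 in females. The GC-corrected log2 fold change of Cacna1g over both sexes was -0.39 ± 0.12 (unadjusted p = 0.00719, adjusted p = 0.900). That of Cacna1i was -0.24 ± 0.09 (unadjusted p = 0.016, adjusted p = 0.900). These were the 2 of 10 members with an unadjusted p under 0.05 in that fit over both sexes, where 917 of 18016 genes had one. In males the slope with GC content ran the other way, with medians of mutant over wild type by GC class of 0.949, 0.989, 1.02, 1.05 and 1.07. There the correction moved Cacna1g and Cacna1i from -0.08 to -0.16 each (adjusted p = 0.9998). The difference between the sexes was then -0.47 for Cacna1g (adjusted p = 0.577) and went from -0.53 to -0.17 for Cacna1i (adjusted p = 0.701). After the correction 5 of 10 members were below 0 in females (median 0.01, 50.5% of genes), 10 of 10 in males (median -0.14, 51.2% of genes) and 8 of 10 over both sexes (median -0.05).

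The other subunits of the family gave no called gene either. Of 16 further α1, β, α2δ and γ genes 14 were tested, 10 with a log2 fold change below 0, and the median was -0.10, where the median of all genes was -0.01. In males all 14 were below 0, with a median of -0.14, where 49% of genes were. In females 8 of 14 were (median -0.05, 53.5% of genes). Of the markers of cortical excitatory neurons 11 of 12 were below 0 in males too (median -0.175). Inhibitory neuron markers had 7 of 12 below 0 there (median -0.07) and oligodendrocyte markers 3 of 10 (median 0.19). The part of cell composition in these counts was not tested. Over both sexes Cacng5 was at -0.37 ± 0.18 (SE, adjusted p = 0.950), from 15.9 ± 2.61 CPM in wild type to 12.0 ± 3.81 in mutants (SD, n = 6). Cacng4 was at -0.28 ± 0.14 (adjusted p = 0.950). Both are γ family genes whose products act chiefly on AMPA receptors. Cacnb3, a β subunit gene that is highly expressed in brain, was at -0.35 ± 0.22 (adjusted p = 0.950), with mutants spread from 38.7 CPM in female mutant 3 to 144, and at -0.19 without female mutant 3. Per kilobase of exon, Cacnb3 (33.4 CPM) and Cacnb1 (24.7) followed Cacnb4 among the β genes in wild type, with Cacnb2 at 5.35, while Cacna2d3 (14.6), Cacna2d2 (7.69) and Cacna2d4 (0.452) were below Cacna2d1. The pore genes of muscle and retina, Cacna1s and Cacna1f, were low, at 0.715 and 0.163 CPM in wild type. Cacna1s was tested, at 0.54 ± 0.39 (SE, adjusted p = 0.950), and Cacna1f did not pass the filter on low counts.

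Genes that regulate or follow calcium entry were counted in the same way over both sexes, and 0 were called in each list. Of 24 regulators and partners of the channels 10 were below 0 (median 0.05) and 3 had an unadjusted p under 0.05. Stac, an adaptor that slows inactivation of L-type channels, was at 0.72 ± 0.20 (SE, unadjusted p = 0.00298, adjusted p = 0.950), from 1.31 ± 0.287 CPM in wild type to 2.11 ± 0.460 in mutants (SD, n = 6), a low level. Rem2, a small GTPase that inhibits high-voltage-activated channels, was at -0.63 ± 0.23 (adjusted p = 0.950), and Erc1, an active zone scaffold gene, at 0.18 ± 0.08 (adjusted p = 0.950). Of 21 tested calcium-activated channels and effectors 11 were below 0 (median -0.02) and 2 had an unadjusted p under 0.05. The 3 of smallest p were Hpca, a neuronal calcium sensor, at -0.34 ± 0.12, Camk2d, a calcium/calmodulin kinase, at 0.27 ± 0.10, and Adcy1, a calmodulin-stimulated adenylyl cyclase, at -0.26 ± 0.13 (SE, adjusted p = 0.950 each). Of 24 genes for extrusion, buffering and release 11 were below 0 (median 0.02) and 2 had an unadjusted p under 0.05. Ryr1, a calcium release channel, was at -0.47 ± 0.15, the sodium/calcium exchanger gene Slc8a2 at -0.21 ± 0.09 and the plasma membrane calcium pump gene Atp2b2 at -0.22 ± 0.11 (SE, adjusted p = 0.950 each). Set beside the 3.96% of all genes with an unadjusted p under 0.05, the lists held 0 of 14, 3 of 24, 2 of 21 and 2 of 24. Without female mutant 3 they held 1 of 14, 3 of 24, 4 of 21 and 8 of 24, where 7.46% of genes had such a p. Of the 8 genes for extrusion, buffering and release, 6 were lower in mutants. In that fit 0 were called in each list.

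How the members varied together depended on female mutant 3. Over all 12 libraries Cacna1g and Cacna1h had a Pearson's r of 0.849 in log2 CPM, Cacna1h and Cacna1i 0.898, and Cacna1g and Cacna2d1 -0.853. Over the 11 libraries without it the same pairs had r = 0.0759, 0.433 and -0.572. Among the 11, Cacna1c and Cacna1e had the highest r of any pair of members (0.865), followed by Cacna1b and Cacna1d (0.809) and Cacna1b and Cacna1h (0.783). The libraries share dissection, composition and sequencing depth, so these are descriptions and carry no p.

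The genes most like each member across the 11 libraries were found among 15063 genes with a mean of at least 1 CPM, by Pearson's r of log2 CPM. Cacna2d1 was most like Gria2 (r = 0.976), an AMPA receptor subunit gene, and Lrp8 (0.971), and Cacnb4 most like Spock3 (0.971) and Gsk3b (0.962). For Cacna1i they were Kdm4b (0.946) and Tspan5 (0.941), for Cacna1d Intu and Ice1 (both 0.942), for Cacna1c Plcz1 (0.931) and Fam19a1 (0.923), and for Cacna1b Rnf169 (0.921) and Sorcs3 (0.909). Cacna1g was most like Pcdhgc4 (0.910), Cacna1h like Tctn2 (0.905) and Trank1 (0.891), Cacna1e like Gm21378 (0.902) and Moxd1 (0.891), and Cacna1a like Rbbp8 and Xkr6 (both 0.887). The highest of many values is reported for each gene. With female mutant 3 included, r was 0.970 for Cacna1g and Pcdhgc4 and -0.0732 for Cacna1d and Intu, so some of these likenesses do not extend to that library.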

How the data were processed

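Cortex RNA of 12 mice was sequenced as paired reads of 150 bases, per the labels. Per the submitters' processing notes, Trimmomatic 0.36, HISAT2 2.1.0, Cufflinks, HTSeq 0.11 and build GRCm38.p6 were used. Whether strand was used in counting, and with which annotation, is not given in the sources used here. The authors deposited unnormalized counts of reads per gene, in whole numbers. GENCODE M21 names 54165 of the 54232 identifiers, and the other 67 took no more than 0.0297% of any library.

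Counts were filtered with edgeR's filterByExpr over the 4 groups, scaled by TMM and tested with the quasi-likelihood functions of edgeR 4.0.16 in R 4.3.3. The test itself gives no SE. The SE printed with an edgeR log2 fold change is its absolute value over the square root of the test's F statistic. Sex and genotype were terms for effects over both sexes, and 1 mean per group was fitted for each sex and for genotype by sex. Benjamini-Hochberg adjustment covered every tested gene of a comparison, with calls at 0.05. The fits were also run on simulated data, in which all libraries shared 1 expression profile apart from changes planted in the mutants. The simulation held no slope with GC content like that of female mutant 3, so it does not cover that feature. CPM used TMM-scaled totals, and log2 CPM a prior count of 2. A count of 0 allows up to 3 counts, 0.0861 to 0.137 CPM in 11 libraries and 1.16 CPM in female mutant 3, for counting error only. Lengths, GC content and coding sequence came from GENCODE M21, by the longest coding transcript. The coding length was taken from that annotation rather than from a protein table.

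Alternatives were DESeq2 1.42.0, limma-voom (limma 3.58.1) with and without library weights, RLE or library-total scaling, no filter, 1 CPM in 6 libraries, no sex term, 1 mean per group, and leaving out each library, with 2 tools repeated without female mutant 3. A GC offset per library was added after the data were seen. All 10 members are named, and in each other list the 3 genes of smallest p over both sexes, along with further channel subunits for their level and, for likeness, the 2 genes of highest r, of which 1 is not reported here. The members, lists and markers were chosen with earlier results of these data known.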

Additional observations from a re-analysis of the deposited data

Results flagged for a closer look

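Within each genotype, the 6 libraries were checked for a value that stands apart by Dixon's ratio of gap to range, in 20 groups of values, and chance gives about 1 in 20. In the mutants, female mutant 3 stood apart for Cacna1a (146 CPM, ratio 0.674), Cacna1i (41.8 CPM, ratio 0.702) and Cacnb4 (603 CPM, ratio 0.728). It was the low value for Cacna1a and Cacna1i and the high value for Cacnb4. This library had 3748515 counts and 31.6% mitochondrial counts, and the part of either in these values was not tested. In the wild type, female wild-type 5 stood apart for Cacna1d (61.3 CPM, ratio 0.740), below the 67.4 to 69.6 CPM of the other 5 libraries. That library had 24712815 counts and a mitochondrial share of 7.89%.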

How the results depend on the processing

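No paired analysis was possible because no 2 groups had an animal number in common. Under each of the 25 alternatives over both sexes and the 23 in each other comparison, 0 of the 10 members were called. In females DESeq2 gave no adjusted p to Cacna1d, Cacna1g, Cacna1h and Cacna1i, so that there it was 0 of 6. The alternatives called few genes of any kind. The most were 53 of 18080 over both sexes, 15 of 14874 in females and 16 of 14158 in males, each by DESeq2 without female mutant 3. A count of 0 therefore does not set the members apart from other genes. Of 1170 fold changes of members under alternatives, 1166 had an adjusted p, 0 passed the threshold and 96 had the other sign, and the adjusted p that came nearest was 0.0757, for Cacna1g in females by DESeq2 without female mutant 3. Cacna1g stayed below 0 in all alternatives over both sexes (-0.54 to -0.28) and in females (-1.13 to -0.54), as did Cacna1i (-0.43 to -0.19 and -0.79 to -0.30), and both for genotype by sex (-1.06 to -0.38 and -0.72 to -0.14). Cacna1a, Cacna1b, Cacna1d and Cacna1h were also below 0 in all alternatives over both sexes, Cacna1b and Cacna1d in females, and Cacna1a, Cacna1e, Cacna1h, Cacna2d1 and Cacnb4 in males. None of the 300 values of the 12 genes named from the calcium lists passed, while of the named markers Gfap and Gad1 each passed under 1 alternative. The 24 fold changes of members that changed sign were between -0.27 and 0.20 to begin with, and the cause was not tested. With a GC offset the log2 fold change over both sexes was 0.0019 for Cacna1c and -0.026 for Cacna2d1, in females 0.18 for Cacna1a and 0.076 for Cacna1c, for genotype by sex 0.37 for Cacna1a, 0.013 for Cacna1b and 0.21 for Cacna1h, and for sex 0.11 for Cacna1a, 0.013 for Cacna1i and -0.0034 for Cacna2d1. With the offset and without female mutant 3 it was over both sexes 0.018 for Cacna1c and -0.018 for Cacna2d1, in females 0.024 for Cacna1a, 0.13 for Cacna1c, 0.078 for Cacna1h and -0.10 for Cacnb4, for genotype by sex 0.22 for Cacna1a, 0.034 for Cacna1b and 0.30 for Cacna1h, and for sex 0.020 for Cacna1a and 0.038 for Cacna1i. DESeq2 without female mutant 3 gave over both sexes 0.031 for Cacna1c and -0.031 for Cacna2d1, in females 0.12 for Cacna1c, 0.012 for Cacna1h and -0.077 for Cacnb4, for genotype by sex 0.066 for Cacna1a, 0.0064 for Cacna1d and 0.14 for Cacna1h, and for sex 0.013 for Cacna1a and 0.027 for Cacna1i. Limma-voom without it gave over both sexes 0.029 for Cacna1c and -0.041 for Cacna2d1, in females 0.11 for Cacna1c, 0.0084 for Cacna1h and -0.074 for Cacnb4, for genotype by sex 0.049 for Cacna1a, 0.0067 for Cacna1d and 0.15 for Cacna1h, and for sex 0.015 for Cacna1a and 0.028 for Cacna1i. Library weights gave over both sexes -0.046 for Cacna1e and -0.056 for Cacna2d1, in females 0.10 for Cacna1c and -0.041 for Cacnb4, for genotype by sex 0.032 for Cacna1d and 0.19 for Cacna1h, and for sex 0.038 for Cacna1a. Library totals gave over both sexes -0.081 for Cacna1e and -0.042 for Cacna2d1, in females -0.10 for Cacna1e and -0.085 for Cacnb4, in males 0.028 for Cacna1b and 0.0093 for Cacna1d, for genotype by sex -0.22 for Cacna1c and -0.040 for Cacna1e, and for sex -0.094 for Cacna1e and -0.0092 for Cacna2d1. That scaling moved the median of all genes in females from -0.03 to -0.21, and the share of genes below 0 from 53.5% to 72.7%. Limma-voom gave 0.0010 for Cacna1c in females, and no filter gave -0.0075 for Cacna1e over both sexes and -0.018 for Cacna1c for genotype by sex.

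Leaving out each library in turn, the sign changed for these ranges. Over both sexes they were -0.095 to 0.030 for Cacna1c, -0.046 to 0.043 for Cacna1e, -0.033 to 0.14 for Cacna2d1 and -0.19 to 0.020 for Cacnb4. In females they were -0.17 to 0.11 for Cacna1c, -0.44 to 0.0046 for Cacna1h and -0.084 to 0.31 for Cacnb4. In males they were -0.12 to 0.090 for Cacna1b, -0.085 to 0.0038 for Cacna1c, -0.14 to 0.048 for Cacna1d, -0.15 to 0.012 for Cacna1g and -0.20 to 0.067 for Cacna1i. For genotype by sex they were -0.15 to 0.056 for Cacna1a, -0.13 to 0.14 for Cacna1c, -0.17 to 0.033 for Cacna1d and -0.31 to 0.14 for Cacna1h, and for sex -0.10 to 0.011 for Cacna1a, -0.036 to 0.049 for Cacna1e and -0.20 to 0.026 for Cacna1i. With coding in place of exon length, the wild-type level was 31.6 CPM per kilobase for the L type, 28.7 for P/Q, 19.8 for N, 75.2 for R and 34.5 for T. The shares in wild type and mutants were then 16.7% and 17.2% for L, 15.1% and 14.8% for P/Q, 10.4% and 10.2% for N, 39.6% and 42.8% for R, and 18.2% and 15% for T. The 48 to 56 reads of Cacna1h and Cacna1g limit their precision in female mutant 3.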
